A study of Mus musculus with 6 samples.

Results

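Calcium channels, pumps and the proteins that act on calcium signals are covered here as 42 genes, taken by symbol from the 52636 genes in the deposited tables. By function, 11 genes were grouped under entry and extrusion at the plasma membrane and 10 under release and refill of internal stores. A further 7 serve mitochondrial uptake and release, and 14 the calmodulin, calcineurin and NFAT pathway. These groups are not locations: Stim1 and Stim2, sensors of the store, count under entry, and Plcg2 and Plcb2 under the stores. All 42 were found, and all 42 passed the filter on low counts. Transcripts were measured by RNA sequencing of total RNA in 6 libraries of RAW264.7 cells, an established mouse macrophage line of BALB/c origin. The C2S group holds 3 libraries of cells exposed for 24 h to 150 µg/ml of this extract, and the PM_control group holds 3 libraries of cells at 0 µg/ml. Both groups share the line and its serum-containing medium, and the labels spell out neither C2S nor PM. A single line stands in for macrophages here. The labels do not say that the 3 libraries of a group came from separate cultures, so p-values measure only the spread between these libraries, which may be technical.

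Calcium rises in a macrophage by release from the endoplasmic reticulum and by entry through the plasma membrane. Phospholipase C makes IP3, IP3 receptors let calcium out of the store, STIM proteins sense the emptied store and open ORAI channels, and SERCA and PMCA pumps bring the ion back down. Calcium bound to calmodulin switches on CaM kinases and the phosphatase calcineurin, and calcineurin dephosphorylates NFAT factors so that they enter the nucleus. In macrophages these signals act in phagocytosis, cytokine expression, ATP sensing and osteoclast formation.

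Total estimated counts ranged from 8594485 to 10665869 per library. CPM are counts scaled to a common library total, with TMM factors. A gene needed 3 counts to be counted as seen, and this floor covers counting error only. Without TMM factors, the floor corresponds to between 0.281 and 0.349 CPM. Every member stood far above it, the lowest value being 5.36 CPM for P2rx4 in 1 control library. Of 10 macrophage markers none was at 0 in any library, and their summed level was 8499 to 8705 CPM with C2S and 7300 to 7717 CPM in the controls. Most of that sum was Csf1r and Lyz2. Itgam, Csf1r, Adgre1, Cd68 and Lyz2 were called higher with C2S, Cd14 and Cd200r1 lower, and the other 3 were not called (edgeR). Itgam shares 68.7% of its exon length with Gm49368 and Csf1r 15.1% with Hmgxb3, so their values are uncertain. Markers of T cells, NK cells, neutrophils, mast cells and epithelial cells summed to at most 2 counts in a library. Those of dendritic cells, endothelial cells and fibroblasts summed to at most 12, 9 and 6 counts. Of the B cell markers, Ms4a1 was at 0 throughout, while Cd79a reached 22 counts with C2S and 3 in the controls. In bulk RNA, fewer cells of a type and less RNA per cell cannot be told apart.

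Most members were expressed at an intermediate or high level. Levels of different genes were compared by TPM, which is scaled for transcript length. The SERCA pump gene Atp2a2 was the most abundant member, at 295 ± 12.4 TPM in the controls and 362 ± 5.42 TPM with C2S (SD, n = 3 libraries per group, as for every mean below). Smdt1, which encodes the EMRE subunit of the mitochondrial uniporter, followed at 275 ± 29.8 and 291 ± 56.5 TPM, a difference within its spread. Calm2 stood at 269 ± 15.1 and 234 ± 6.20 TPM and Calm3 at 225 ± 14.8 and 142 ± 9.96 TPM. Both encode the same calmodulin protein. At the low end were the lysosomal channel gene Tpcn2 at 7.32 ± 0.452 and 7.70 ± 0.837 TPM, the calcineurin gene Ppp3cc at 9.29 ± 0.849 and 10.3 ± 0.627 TPM, and P2rx4 at 8.15 ± 3.14 and 15.03 ± 3.33 TPM. At the plasma membrane Trpv2 and Atp2b1 led, at 71.7 ± 2.22 and 61.6 ± 9.19 TPM in the controls, and their control values did not overlap.

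**Figure D1:**
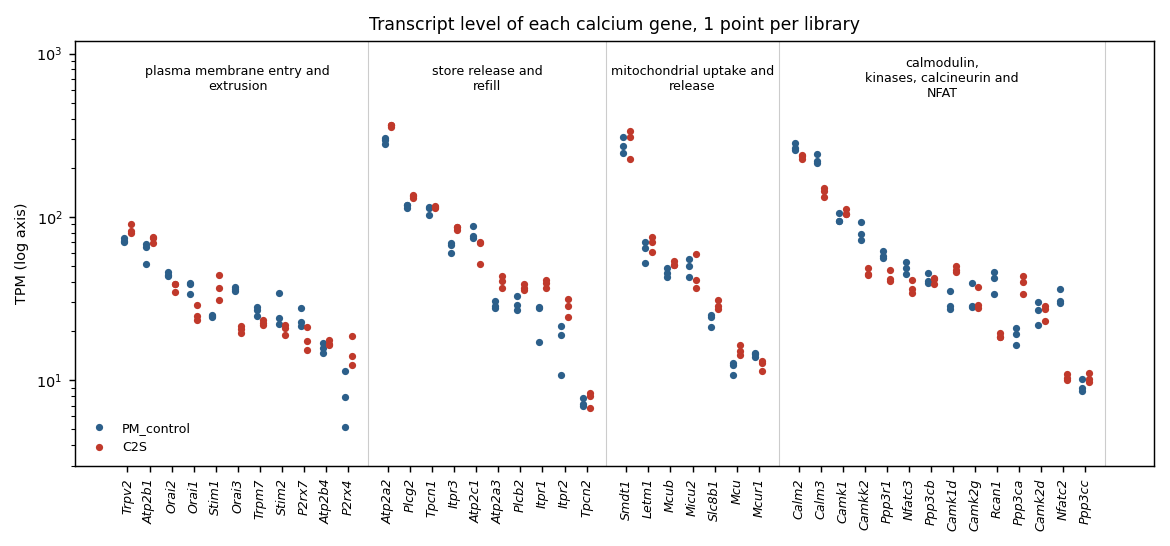
Level of each of the 42 genes in TPM (log axis), 1 point per library, in blue for PM_control and red for C2S. Genes are grouped by site and ordered by mean level. Atp2a2, Smdt1, Calm2 and Calm3 lie highest, and Tpcn2, Ppp3cc and P2rx4 lie lowest.

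Between C2S and PM_control, 30 of the 42 genes passed an adjusted p of 0.05 by edgeR's quasi-likelihood F test with Benjamini-Hochberg adjustment over 11561 tested genes. Of all tested genes 55.4% did so. Among the members 18 (42.9%) rose and 12 (28.6%) fell, beside 27.0% and 28.4% of all tested genes. The median log2 fold change of the members was 0.15, and its median size without regard to sign was 0.32, beside 0.34 over all tested genes. Changes were mostly modest: 10 members passed the threshold with at least a 1.5-fold difference, and 27.0% of all tested genes did. Only Nfatc2, 1 of the 42, exceeded 2-fold among the called members. Of all 11561 tested genes, 1678 were called with at least a 2-fold difference. In 31 members the 3 C2S libraries lay wholly above or wholly below the controls, as they did in 61.1% of all tested genes. The share of members that rose was thus above that of all tested genes. The share that fell and the median size of the changes were close to those of all tested genes. Called changes of at least 2-fold were rarer among the members. Most genes differed in this comparison, and the set itself was not tested.

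The calls differed between the sites, beside 27.0% higher and 28.4% lower among all tested genes. At the internal stores 8 of 10 genes rose and 1 fell, with a median log2 fold change of 0.44. In mitochondria 4 of 7 rose and none fell, with a median of 0.20, although each of these 4 changes was below 1.5-fold. At the plasma membrane 3 of 11 rose and 5 fell (median 0.02), and in the calmodulin, calcineurin and NFAT pathway 3 of 14 rose and 6 fell (median -0.05). The shares that rose there, 27.3% and 21.4%, were near or below that of all tested genes. Among the other genes listed below, 7 store genes rose and 6 fell, and 7 entry genes rose and 2 fell. Differences between sites were not tested. With library sizes alone in place of TMM scaling, 38.3% of all calls were higher rather than 48.8%, and on log2(TPM + 1) 35.9% were. The members then split into 13 higher and 13 lower with library sizes alone, and into 13 higher and 10 lower on log2(TPM + 1).

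**Figure D2:**
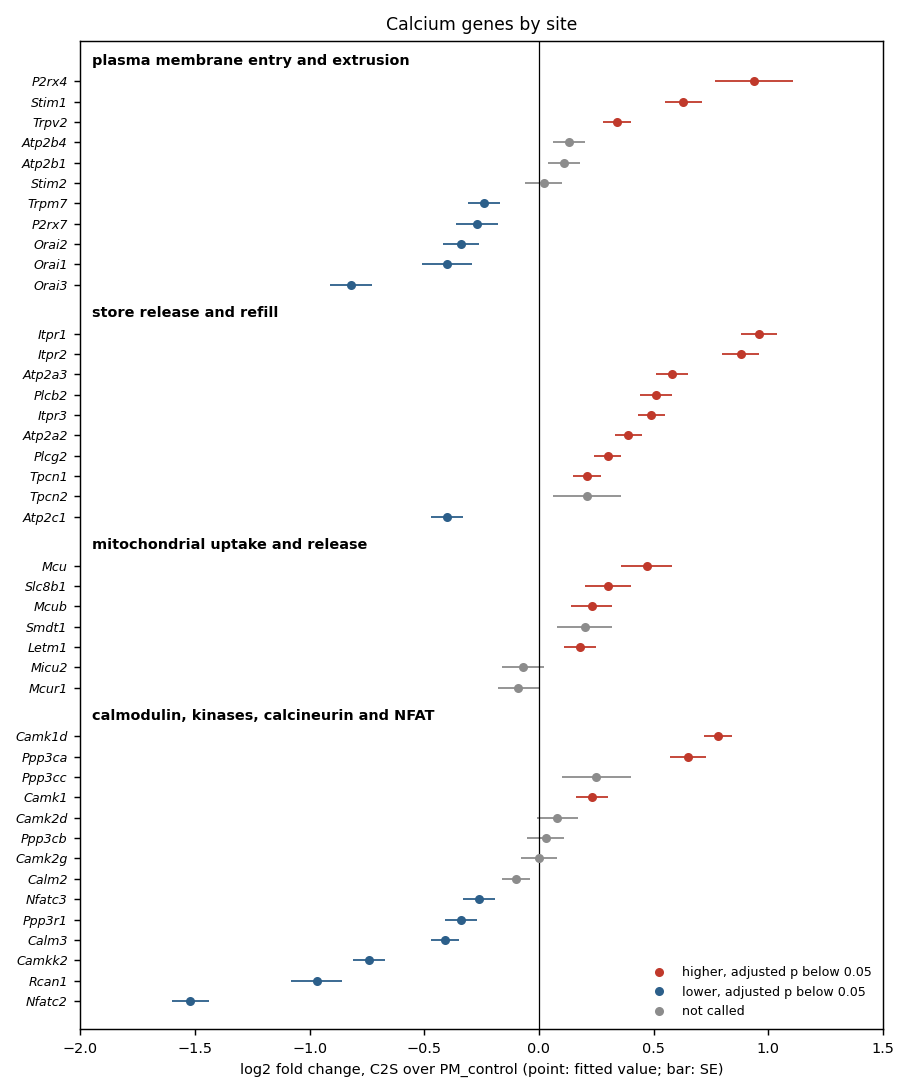
Fitted log2 fold change of C2S over PM_control for each gene (point) with its SE (bar), by site. Red marks genes called higher, blue genes called lower and grey genes that were not called. The store genes lie mostly to the right of 0, from 0.21 to 0.96, with Atp2c1 alone to the left at -0.40.

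Store-operated entry moved in opposite directions at its sensor and its channels. Stim1, the main sensor of the emptied store, rose, and all 3 Orai genes, which encode the pores that STIM proteins open, fell. Stim1 (chr7:102267806-102437319, GRCm38, plus strand) stood at 72.6, 73.8 and 74.4 CPM in the C2S libraries and at 45.5, 49.95 and 47.5 CPM in the controls. The groups were far apart relative to their spread, and the log2 fold change was 0.63 ± 0.08 (SE, as for every log2 fold change; edgeR adjusted p = 3.18e-06). Stim2, the sensor tuned to small losses of store calcium, was at 51.1 ± 3.36 and 50.4 ± 2.43 CPM, with overlapping groups and a log2 fold change of 0.02 ± 0.08 (adjusted p = 0.864 by edgeR).

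Orai3 showed the largest decline of the channels. Its values were 24.4, 23.7 and 22.5 CPM with C2S and 41.0, 42.8 and 40.6 CPM in the controls (chr7:127769815-127775150, GRCm38, plus strand). No C2S library came near a control library, and the log2 fold change was -0.82 ± 0.09 (edgeR adjusted p = 1.01e-06). Orai1 (chr5:123015074-123030456, GRCm38, plus strand) is the pore that carries the classical store-operated current. It was measured at 21.4, 21.6 and 26.3 CPM with C2S and at 28.1, 32.2 and 31.4 CPM in the controls. The third C2S library lay closest to the controls without reaching them, and the change was -0.40 ± 0.11 on the log2 scale (edgeR adjusted p = 0.0055). Orai2 fell by 0.34 ± 0.08 on the log2 scale, from 86.2 ± 4.43 to 68.1 ± 3.85 CPM (edgeR adjusted p = 0.00114).

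The other cation channels of the plasma membrane were divided as well. P2rx4, an ATP-gated channel, was at 13.8, 12.98 and 13.7 CPM with C2S and at 7.43, 5.36 and 8.29 CPM in the controls (chr5:122707544-122729738, GRCm38, plus strand). It was the least expressed member at this site and all C2S libraries lay above all controls, with a log2 fold change of 0.94 ± 0.17 (adjusted p = 0.000212 by edgeR). Its neighbour P2rx7, the low-affinity ATP receptor that opens at high extracellular ATP, fell by 0.27 ± 0.09 on the log2 scale, from 51.1 ± 4.35 to 42.4 ± 3.80 CPM (edgeR adjusted p = 0.0195). The call for P2rx7 was lost without C2S replicate 1, C2S replicate 3 or PM_control replicate 2, with adjusted p of 0.106, 0.0519 and 0.107.

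Trpv2, a cation channel of phagocytes, was the most abundant plasma membrane channel among the 42 genes by TPM (chr11:62574486-62600515, GRCm38, plus strand). Its libraries gave 147, 161 and 146 CPM with C2S and 122, 122 and 116 CPM in the controls. All C2S values lay above all control values, for a log2 fold change of 0.34 ± 0.06 (adjusted p = 0.000254 by edgeR). Trpm7, a channel fused to a protein kinase, fell by 0.24 ± 0.07 on the log2 scale, from 119 ± 6.59 to 101 ± 5.57 CPM (edgeR adjusted p = 0.00619). That direction turned when each library's trend over GC content was removed, to a log2 fold change of 0.19 (adjusted p = 0.021). The plasma membrane pumps Atp2b1 and Atp2b4, which export calcium, had log2 fold changes of 0.11 ± 0.07 and 0.13 ± 0.07 and were not called (edgeR adjusted p = 0.174 and 0.132).

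**Figure D3:**
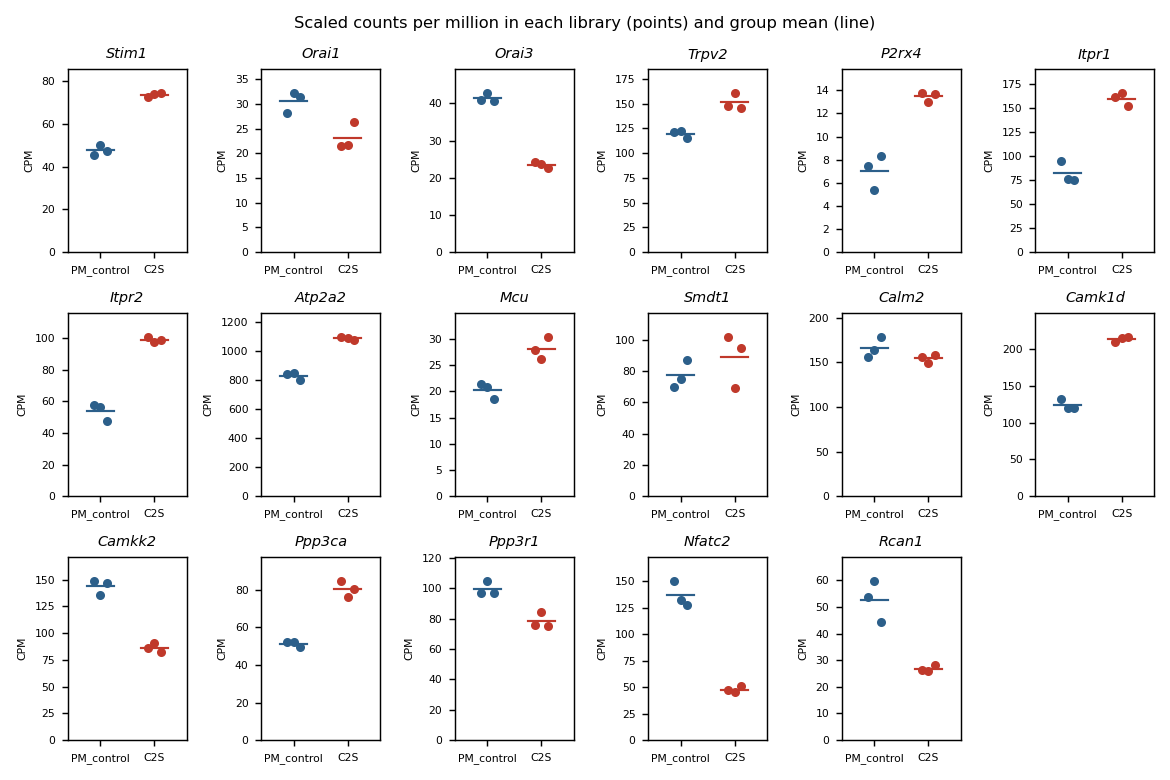
TMM-scaled CPM in each library (points; blue PM_control, red C2S) and the group mean (line) for the 17 genes whose values are given library by library, each on its own axis from 0. The groups overlap for Smdt1 and Calm2 and are separate for the other 15.

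At the internal stores the release channels and the pumps that refill the store rose together in these libraries. All 3 IP3 receptor genes and both SERCA genes were higher with C2S. Itpr1 (chr6:108213096-108551109, GRCm38, plus strand) stood at 162, 166 and 152 CPM with C2S and at 94.6, 76.7 and 75.5 CPM in the controls. Every C2S library exceeded every control by a wide margin, and the log2 fold change of 0.96 ± 0.08 was the largest increase among the members (edgeR adjusted p = 3.78e-08). Itpr2 (chr6:146108299-146502223, GRCm38, minus strand), the receptor type most sensitive to IP3, was at 101, 98.0 and 98.7 CPM against 57.9, 56.3 and 47.6 CPM in the controls. Its C2S libraries were close to one another, and the log2 fold change was 0.88 ± 0.08 (edgeR adjusted p = 1.17e-07). Itpr3, the most abundant of the IP3 receptor genes, rose less, from 376 ± 24.2 to 528 ± 9.84 CPM (log2 fold change 0.49 ± 0.06, edgeR adjusted p = 3.51e-06).

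Atp2a2 encodes SERCA2, the pump that returns calcium to the endoplasmic reticulum (chr5:122453513-122502225, GRCm38, minus strand). It was measured at 1097, 1095 and 1077 CPM with C2S and at 844, 849 and 801 CPM in the controls. The groups did not overlap, and the log2 fold change was 0.39 ± 0.06 (edgeR adjusted p = 2.31e-05). Atp2a3, the SERCA3 gene of blood cells, rose from 79.7 ± 3.94 to 119 ± 8.50 CPM, by 0.58 ± 0.07 on the log2 scale (edgeR adjusted p = 4.08e-06).

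Both phospholipase C genes among the members, whose products make IP3, rose. Plcb2, which acts below G-protein-coupled receptors, went from 80.7 ± 6.77 to 115 ± 3.33 CPM (log2 fold change 0.51 ± 0.07, edgeR adjusted p = 1.63e-05). Plcg2, which acts below Fc and other tyrosine-kinase-linked receptors, went from 309.8 ± 6.46 to 381 ± 11.8 CPM (log2 fold change 0.30 ± 0.06, edgeR adjusted p = 0.000246). Outside the 42 genes Plcb4, named after its value was seen, fell by 0.52 ± 0.08 on the log2 scale, from 81.5 ± 5.56 to 56.9 ± 2.71 CPM (edgeR adjusted p = 3.29e-05). Plcg1, Plcb3, Plcd3 and Plcd4 were not called, with log2 fold changes of 0.14 to 0.26 (edgeR adjusted p of 0.152 to 0.507). Of the lysosomal channels that answer to NAADP, Tpcn1 rose by 0.21 ± 0.06 on the log2 scale (edgeR adjusted p = 0.00519) and Tpcn2 had a log2 fold change of 0.21 ± 0.15 (adjusted p = 0.252 by edgeR). The Tpcn1 call was lost with library sizes alone, on the TPM scale and with the GC trend removed, at adjusted p of 0.0762 to 0.535. The exception was Atp2c1, the calcium and manganese pump of the Golgi. It fell by 0.40 ± 0.07 on the log2 scale, from 129 ± 7.34 to 97.4 ± 2.86 CPM (edgeR adjusted p = 6.85e-05). The Atp2c1 call was lost on both TPM scales, at adjusted p of 0.0762 and 0.0766. Since 18.9% of its exon length overlaps Aste1, and the strand setting of the counting is not given in the sources used here, its value is uncertain.

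In mitochondria the uniporter pore and its partners for release moved by small amounts. Mcu, the pore-forming subunit of the uniporter, was at 27.9, 26.2 and 30.3 CPM with C2S and at 21.4, 20.8 and 18.6 CPM in the controls (chr10:59446984-59616692, GRCm38, minus strand). All 3 C2S libraries lay above the controls, with a log2 fold change of 0.47 ± 0.11 (adjusted p = 0.0015 by edgeR), and this call held in all 17 alternatives run for it. Mcub, a paralogue of Mcu that lowers the conductance of the pore, rose by 0.23 ± 0.09 on the log2 scale, from 29.8 ± 1.43 to 35.1 ± 2.06 CPM (edgeR adjusted p = 0.0424). On the TPM scale Mcub was the more abundant of the pair in both groups, at 45.6 ± 2.80 against 11.9 ± 1.04 TPM for Mcu in the controls.

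Smdt1 had the widest spread of the mitochondrial genes. It was measured at 102, 69.4 and 95.2 CPM with C2S and at 69.6, 75.3 and 87.5 CPM in the controls (chr15:82338959-82349091, GRCm38, plus strand). The second C2S library was the lowest of all 6, the groups overlapped, and the log2 fold change of 0.20 ± 0.12 was not called (edgeR adjusted p = 0.153). Without C2S replicate 2 the change was 0.35 and passed (adjusted p = 0.00286). Smdt1 shares 16.6% of its exon length with Pheta2, which makes its value uncertain.

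Letm1, an inner membrane ion exchanger, rose by 0.18 ± 0.07 on the log2 scale (edgeR adjusted p = 0.0298), and Slc8b1, the mitochondrial sodium-calcium exchanger, by 0.30 ± 0.10 (edgeR adjusted p = 0.0155), with groups that overlapped for Slc8b1. Micu2, a gatekeeper of the uniporter, and Mcur1, a uniporter regulator, had log2 fold changes of -0.07 ± 0.09 and -0.09 ± 0.09 (edgeR adjusted p = 0.490 and 0.421). The calls for Mcub, Letm1 and Slc8b1 each fell away in at least 8 of 17 alternatives. Leaving out C2S replicate 3 ended all 3 calls, so that only Mcu remained among the mitochondrial genes. Each of C2S replicate 1 and the 3 control libraries, left out in turn, gave 2 mitochondrial genes in place of 4.

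Calmodulin and the kinases it activates were split. Calm2 was at 156, 150 and 158 CPM with C2S and at 156, 164 and 178 CPM in the controls (chr17:87433412-87446935, GRCm38, minus strand). The groups overlapped and the log2 fold change was -0.10 ± 0.06 (edgeR adjusted p = 0.186). With library sizes alone and on the TPM scale Calm2 was called lower, at -0.19 to -0.20, and with the GC trend removed its value was 0.08. Calm3 fell by 0.41 ± 0.06 on the log2 scale, from 244 ± 13.03 to 184 ± 9.34 CPM (edgeR adjusted p = 3.2e-05).

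Among the 5 CaM kinase pathway genes of the set, Camk1d and Camkk2 moved most, and in opposite directions. Camk1d, a CaM kinase I form first described in granulocytes, stood at 209.6, 215 and 216 CPM with C2S and at 133, 119.6 and 120.1 CPM in the controls (chr2:5293457-5714515, GRCm38, minus strand). The separation was clear in every library, with a log2 fold change of 0.78 ± 0.06 (adjusted p = 1.47e-08 by edgeR). Camkk2 (chr5:122731170-122779409, GRCm38, minus strand), the kinase that phosphorylates CaM kinases I and IV and AMPK, was at 85.9, 90.5 and 82.4 CPM with C2S and at 149, 136 and 147 CPM in the controls. All C2S libraries lay below all controls, with a log2 fold change of -0.74 ± 0.07 (adjusted p = 8e-08 by edgeR). Camk1 rose by 0.23 ± 0.07 on the log2 scale (edgeR adjusted p = 0.0158), a call lost without C2S replicate 1, PM_control replicate 1 or PM_control replicate 2 (adjusted p of 0.0673, 0.0712 and 0.0711). The CaM kinase II genes Camk2d and Camk2g had log2 fold changes of 0.08 ± 0.09 and -0.00 ± 0.08 (edgeR adjusted p = 0.452 and 0.963).

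Calcineurin consists of a catalytic A subunit and a regulatory B subunit, and the genes of the 2 kinds of subunit did not move together. Ppp3ca, the alpha form of the catalytic subunit, was at 84.7, 76.1 and 80.3 CPM with C2S and at 52.3, 52.2 and 49.3 CPM in the controls (chr3:136670124-136937727, GRCm38, plus strand). Its groups were far apart, with a log2 fold change of 0.65 ± 0.08 (adjusted p = 2.23e-06 by edgeR). Ppp3cb, the beta form, was at 79.4 ± 2.65 and 77.7 ± 6.13 CPM (log2 fold change 0.03 ± 0.08, edgeR adjusted p = 0.752). With the GC trend removed Ppp3cb reached 0.62 and was called (adjusted p = 1.68e-06). Its exons are the poorest in GC of all members, at 37.5%. Ppp3cc had a log2 fold change of 0.25 ± 0.15 and was not called (edgeR adjusted p = 0.159).

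Ppp3r1, the B subunit that binds calcium, stood at 76.0, 84.5 and 75.3 CPM with C2S and at 96.9, 105 and 96.7 CPM in the controls (chr11:17159263-17200375, GRCm38, plus strand). All C2S libraries lay lower, and the log2 fold change was -0.34 ± 0.07 (edgeR adjusted p = 0.000855). With the GC trend removed it was 0.02 (adjusted p = 0.806), and 14.3% of its exon length overlaps Wdr92, so the value is uncertain.

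Downstream of calcineurin, the NFAT factor Nfatc2 and the calcineurin inhibitor Rcan1 had the lowest ratios of C2S to control among the members. Nfatc2 (chr2:168476410-168601657, GRCm38, minus strand) was at 46.9, 45.3 and 50.8 CPM with C2S and at 149.9, 132 and 127 CPM in the controls. Every C2S library held less than every control, 0.349 times as much on the fitted scale, and the log2 fold change was -1.52 ± 0.08 (edgeR adjusted p = 9.31e-11). Nfatc3 fell by 0.26 ± 0.07 on the log2 scale, from 175 ± 12.2 to 147 ± 13.5 CPM (edgeR adjusted p = 0.00664). With the GC trend removed Nfatc3 was at -0.09 and not called (adjusted p = 0.316). Rcan1 (chr16:92391953-92470867, GRCm38, minus strand), whose product binds and restrains calcineurin, was at 26.4, 25.8 and 28.2 CPM with C2S and at 53.9, 59.8 and 44.3 CPM in the controls. The C2S libraries were close together and all below the controls, with a log2 fold change of -0.97 ± 0.11 (adjusted p = 8.87e-07 by edgeR).

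Osteoclast formation is a setting in which NFAT factors act, so the osteoclast markers are given beside these values. Calcr, 1 of the 5 markers, was at 0 in every library. The summed level of the 5 was 19.2 to 25.5 CPM with C2S and 36.6 to 40.7 CPM in the controls, most of it Dcstamp. Only Dcstamp was called, with a log2 fold change of -0.92 ± 0.12 (adjusted p = 9.05e-06 by edgeR). Acp5 and Ocstamp were not called. Ctsk, which did not pass the count filter, lay the other way, at 10, 12 and 16 counts with C2S and 2, 0 and 2 counts in the controls. The part of these markers in the NFAT and Rcan1 values was not tested.

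Rcan1 and Nfatc2 each have 2 annotated transcription starts in RefSeq, an upstream and an internal one. The 250 bases before each start are shown because these genes had the lowest ratios of C2S to control. The internal promoter of Rcan1 is known as a target of NFAT itself. Windows are from RefSeq, GRCm38.p6, minus strand, written 5′ to 3′ and ending at the base before the start. Capitals mark matches to GGAAA, the core bound by NFAT (or TTTCC, its reverse complement), to TGACGTCA, the cAMP response element, and to TGANTCA, the AP-1 element, on either strand.
Rcan1 internal start, chr16:92400079-92400328: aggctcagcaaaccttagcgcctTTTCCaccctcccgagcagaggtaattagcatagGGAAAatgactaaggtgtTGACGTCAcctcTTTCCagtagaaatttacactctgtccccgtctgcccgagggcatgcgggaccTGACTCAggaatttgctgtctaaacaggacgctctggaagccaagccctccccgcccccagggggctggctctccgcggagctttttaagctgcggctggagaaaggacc
Rcan1 upstream start, chr16:92466170-92466419: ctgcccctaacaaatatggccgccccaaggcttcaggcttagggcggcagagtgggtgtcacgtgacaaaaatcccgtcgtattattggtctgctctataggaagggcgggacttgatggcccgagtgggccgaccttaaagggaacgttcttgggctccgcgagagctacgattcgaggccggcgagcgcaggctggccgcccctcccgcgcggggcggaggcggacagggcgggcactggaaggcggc
Nfatc2 upstream start, chr2:168601658-168601907: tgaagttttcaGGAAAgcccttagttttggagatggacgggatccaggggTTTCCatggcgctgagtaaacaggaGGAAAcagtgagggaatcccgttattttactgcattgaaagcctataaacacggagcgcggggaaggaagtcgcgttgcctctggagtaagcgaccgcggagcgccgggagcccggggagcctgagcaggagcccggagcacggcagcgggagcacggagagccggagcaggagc
Nfatc2 internal start, chr2:168590366-168590615: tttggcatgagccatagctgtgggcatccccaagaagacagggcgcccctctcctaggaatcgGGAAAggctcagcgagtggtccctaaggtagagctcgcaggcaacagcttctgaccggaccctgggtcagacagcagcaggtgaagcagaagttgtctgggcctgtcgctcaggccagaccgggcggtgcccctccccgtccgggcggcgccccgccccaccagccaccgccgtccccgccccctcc

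The window before the internal start of Rcan1 held 3 matches to the NFAT core, beginning 227, 193 and 163 bases before the start. It also held 1 cAMP response element at 175 bases and 1 AP-1 element at 110 bases. The window before the upstream start held no match to any of these motifs. The upstream window of Nfatc2 held 3 NFAT cores, at 239, 200 and 175 bases, and its internal window held 1 at 187 bases. The NFAT core is short and common: 55.6% of 32851 RefSeq windows of 250 bases held it, as did 21 of the 43 windows found for 34 of the members. A cAMP response element stood in 1.55% of all windows and in 2 of the 43, which belong to Rcan1 and Smdt1. An AP-1 element stood in 6.75% of all windows and in 3 of the 43, which belong to Rcan1, Mcu and P2rx7. A further motif, TGATGNAA, the ATF4 composite element, was in 3.45% of all windows and in none of the 43. A match is a description of letters and shows no binding.

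The deposited tables also give, per library, each gene's mean transcript length weighted by the estimated share of its transcripts. A shift in that length is a shift in the estimated shares, and transcript use itself was not measured separately. Of 39 members whose length can vary, 11 (28.2%) had groups that did not overlap, beside 15.6% of 9132 tested genes with such a length. With C2S the mean length was greater for Plcb2, Tpcn1, Nfatc3 and Rcan1, and smaller for Orai2, Orai3, Trpm7, Atp2b1, Atp2b4, Ppp3ca and Ppp3cb. Each gave p = 0.1 in an exact two-sided permutation test, the smallest p that 3 against 3 libraries allow. Mean lengths were compared after their values were seen.

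Ppp3ca had the largest such difference among these members. Its mean transcript length was 2994, 3496 and 3069 bases with C2S and 4153, 4381 and 4758 bases in the controls. The tables list 8 transcripts for it, and the longest, Ppp3ca-202 in GENCODE M21, is 4758 bases long. In 1 control library the mean therefore equalled the longest transcript, and in every C2S library it was shorter. Because TPM divides by length, the rise of Ppp3ca was 2.08-fold in TPM and 1.57-fold in CPM.

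Rcan1 has 2 transcripts in the tables, so its mean length can be turned into a share for each. Their GENCODE M21 lengths are 2324 and 2190 bases. The longer was taken as the transcript from the upstream start and the shorter as that from the internal start. That assignment went by length alone and was not checked against their positions. On it, the upstream transcript made up 68.5, 59.7 and 86.6% of Rcan1 with C2S. In the controls it made up 37.9, 34.1 and 46.9%. The groups did not overlap, and the means were 71.6 ± 13.7% and 39.6 ± 6.56% (exact two-sided permutation p = 0.1, the smallest possible). The implied level of the upstream transcript was 12.6, 10.99 and 16.8 TPM with C2S and 16.0, 15.6 and 15.7 TPM in the controls (permutation p = 0.4, exact). The shorter transcript, taken as internal, was at 5.80, 7.42 and 2.59 TPM with C2S and at 26.1, 30.1 and 17.8 TPM in the controls (permutation p = 0.1, exact). Its start was not matched to the windows printed above. Most of the difference in Rcan1 thus lay in the shorter transcript, as far as mean lengths can tell. The lengths differ by 134 bases only, and the authors' annotation is not given in the sources used here. Among 33126 genes with 1 transcript in the tables, 95.6% had the length that GENCODE M21 gives.

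**Figure D4:**
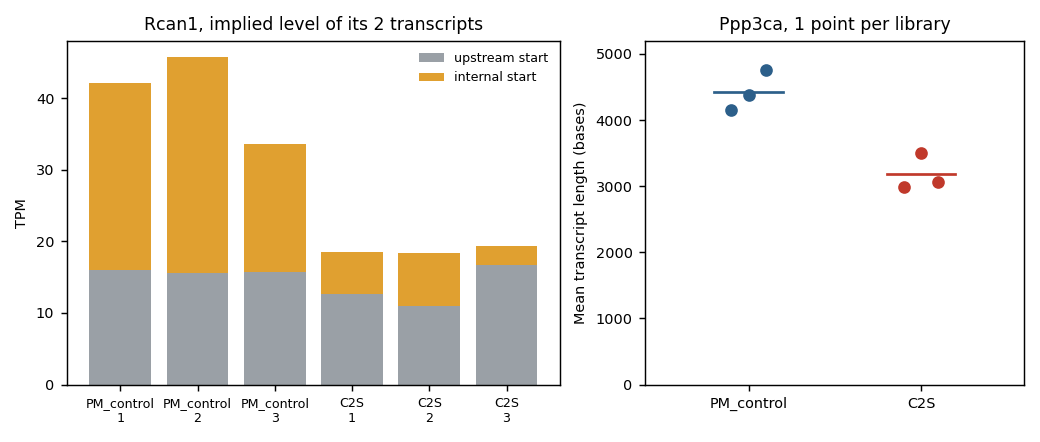
Left, implied TPM of the 2 Rcan1 transcripts in each library (stacked bars from 0), with the longer taken as the upstream start by length alone. Right, mean transcript length of Ppp3ca in bases, 1 point per library with the group mean as a line. The internal-start part of Rcan1 is 17.8 to 30.1 TPM in the controls and 2.59 to 7.42 TPM with C2S, and Ppp3ca is shorter in each C2S library.

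Within families, the makeup was compared as each gene's share of the family's summed TPM, over 18 shares. No share could reach 0.05, since 3 against 3 libraries allow p = 0.1 at best, and the adjusted values (Benjamini-Hochberg over the 18) were 0.2 or more by the exact two-sided permutation test. The Orai total was 118 ± 3.79 TPM in the controls and 83.5 ± 4.50 TPM with C2S. Within it Orai2 made up 37.8 ± 1.03% and 44.8 ± 0.717%, and Orai3 made up 30.7 ± 1.38% and 24.5 ± 2.06%, both without overlap. The IP3 receptor total was 107 ± 16.4 TPM in the controls and 153 ± 3.36 TPM with C2S. Itpr3 made up 61.9 ± 5.47% of it in the controls and 56.1 ± 0.038% with C2S, a difference of -5.88 percentage points. Without PM_control replicate 3, where the share was 68.2%, the difference was -2.72 points.

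Stim1 and Stim2 were near parity in the controls, where Stim1 made up 48.6 ± 5.78% of their sum. With C2S it made up 64.2 ± 5.71%. Among the calcineurin catalytic genes Ppp3ca was 27.0 ± 3.24% in the controls and 43.2 ± 3.84% with C2S, and Ppp3cb was 59.8 ± 4.04% and 45.4 ± 2.76%. By share of expected counts, which do not depend on transcript length, the Ppp3ca difference was 9.86 percentage points in place of 16.3. P2rx4 made up 24.7 ± 4.92% of the P2X sum in the controls and 45.4 ± 8.43% with C2S, and by expected counts this difference was 12 points in place of 20.8. Of the summed TPM of Nfatc2 and Nfatc3, Nfatc2 was 39.7 ± 1.12% in the controls and 22.1 ± 2.14% with C2S.

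In the SERCA and 2-pore channel families the makeup differed little. Atp2a2 was 91.1 ± 0.384% of the SERCA sum in the controls and 89.99 ± 0.8001% with C2S, while that sum was 324 ± 13.2 and 402 ± 5.10 TPM. Tpcn1 was 93.8 ± 0.321% and 93.7 ± 0.634% of the 2-pore channel sum. Mcu was 20.7 ± 1.57% and 22.8 ± 0.647% of the sum of Mcu and Mcub, with overlapping groups, and the difference was 4.03 points by expected counts in place of 2.05.

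**Figure D5:**
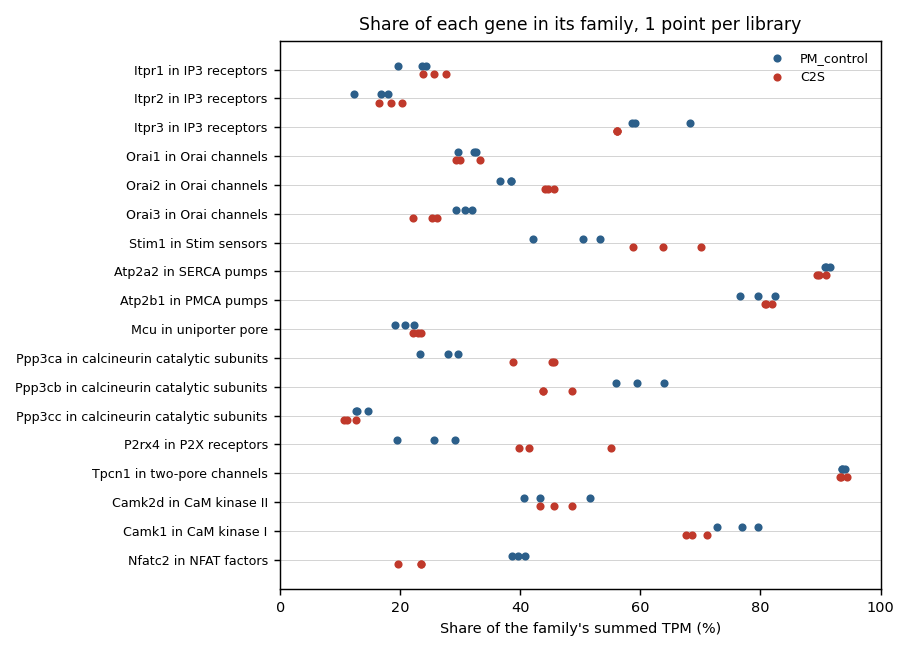
Share of each gene in the summed TPM of its family (%), 1 point per library, blue for PM_control and red for C2S. For families of 2 genes the share of 1 gene is drawn. Stim1, Ppp3ca, P2rx4 and Nfatc2 show the largest differences between group means, while the shares of Tpcn1 and Camk2d overlap.

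On chromosome 5 lie 10 of the members, and some are close neighbours. Slc8b1 and Tpcn1 lie tail to tail 128 bases apart, and both rose. P2rx4 and Camkk2 lie tail to tail 1.43 kb apart, and they moved in opposite directions. P2rx7 ends 16.1 kb before P2rx4 starts, on the same strand, and the pair also moved in opposite directions. Over the 42 genes the log2 fold change had Pearson r = 0.42 and Spearman rho = 0.42 with the number of exon blocks, as a description across genes that share libraries. Over all tested genes rho was 0.10. With GC content of the transcripts rho was 0.0 over the members and 0.21 over all tested genes.

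The wider calcium pathway was followed in 7 lists of other genes. Of 265 genes found, 166 passed the filter, and 52 of these rose (31.3%) and 46 fell (27.7%), with a median log2 fold change of 0.09. These shares were near the 27.0% and 28.4% of all tested genes, which also stand beside the counts of each list below. Among 15 other genes of entry and extrusion 7 rose (46.7%) and 2 fell (13.3%). Saraf, which switches off store-operated entry, rose by 0.50 ± 0.09 on the log2 scale, from 41.2 ± 3.32 to 58.2 ± 2.97 CPM (edgeR adjusted p = 0.000108). Tmem110, which supports STIM1 at contact sites of the endoplasmic reticulum and the plasma membrane, fell by 0.32 ± 0.10 (edgeR adjusted p = 0.016). Pkd1 rose by 0.56 ± 0.06 (edgeR adjusted p = 1.46e-06), and Pkd2, the channel subunit that pairs with its product, fell by 0.29 ± 0.11 (edgeR adjusted p = 0.0317).

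Among 23 other store and organelle genes 7 rose (30.4%) and 6 fell (26.1%), near the shares of all tested genes. Tmbim6, which encodes a calcium leak protein of the endoplasmic reticulum, rose by 0.38 ± 0.06 on the log2 scale (edgeR adjusted p = 2.58e-05), and Nucb1, a calcium-binding protein of the Golgi, by 0.46 ± 0.06 (edgeR adjusted p = 6.35e-06). Itpripl1 and Itpripl2, which resemble an IP3 receptor-interacting protein, fell by 1.37 ± 0.10 and 1.32 ± 0.10 (edgeR adjusted p = 9.59e-09 and 9.49e-09).

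Of 20 other mitochondrial genes 7 rose and 6 fell. Slc25a25, a calcium-regulated carrier of ATP-Mg and phosphate, rose by 0.58 ± 0.08 on the log2 scale and Ghitm, an inner membrane protein, by 0.35 ± 0.06 (edgeR adjusted p = 8.95e-06 and 8.74e-05). Pdzd8, which tethers the endoplasmic reticulum to other organelles, and Slc25a13, a calcium-regulated aspartate-glutamate carrier, each fell by 0.52, with SE of 0.08 and 0.10 (edgeR adjusted p = 2.37e-05 and 0.000352).

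The list of 28 other calmodulin, kinase, calcineurin and NFAT genes held 10 that rose and 7 that fell. Nfatc1 was the most reduced by adjusted p, from 483 ± 49.1 to 106 ± 5.15 CPM, or -2.19 ± 0.08 on the log2 scale (adjusted p = 3.33e-13 by edgeR). Akap1, a mitochondrial anchor of kinases and phosphatases, fell by 1.13 ± 0.08 (edgeR adjusted p = 4.26e-09). Dyrk1a, a kinase that phosphorylates NFAT and so favours its export from the nucleus, rose by 0.61 ± 0.07, from 95.9 ± 6.43 to 147 ± 8.09 CPM (edgeR adjusted p = 1.17e-06). Mef2d, a transcription factor regulated by calcium, rose by 0.78 ± 0.06 (edgeR adjusted p = 1.79e-08).

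Further members of the same families were named after their values were seen. Nfat5, the NFAT-related factor that calcineurin does not control, rose by 0.60 ± 0.08 on the log2 scale, from 447 ± 63.2 to 679 ± 34.7 CPM (edgeR adjusted p = 8.95e-06). Nfatc4 had 46, 19 and 32 counts with C2S and 1, 0 and 0 counts in the controls, a low level of 3.48 ± 1.12 CPM with C2S. The C2S libraries also had a count for more genes of any kind, 16648, 15852 and 15887, than the controls, 15051, 14638 and 14751. Rcan3, a paralogue of Rcan1, fell by 0.64 ± 0.08, from 70.7 ± 1.81 to 45.3 ± 3.48 CPM (edgeR adjusted p = 4.63e-06). The NFAT genes regulated by calcineurin thus did not share a direction, with Nfatc1, Nfatc2 and Nfatc3 lower and Nfatc4 detected mainly in the C2S libraries.

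Among 13 tested receptors that raise calcium, 3 rose and 7 fell, beside 27.0% and 28.4% of all tested genes, with a median log2 fold change of -0.68. P2ry6, the UDP receptor, fell by 1.33 ± 0.08 on the log2 scale, from 110.3 ± 4.82 to 43.9 ± 3.85 CPM (edgeR adjusted p = 5.94e-10). S1pr2, a receptor for sphingosine 1-phosphate, fell by 2.06 ± 0.11 (edgeR adjusted p = 1.48e-10), and Ptafr, the receptor for platelet-activating factor, rose by 0.45 ± 0.15 (edgeR adjusted p = 0.0192).

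Of 33 genes for phospholipase C, inositol phosphates and diacylglycerol 10 rose (30.3%) and 9 fell (27.3%), near the shares of all tested genes. Prkce, the epsilon form of protein kinase C, rose most among those named by the rule for this list, by 1.77 ± 0.16 on the log2 scale, from 5.43 ± 0.745 to 18.5 ± 0.730 CPM (edgeR adjusted p = 6.50e-08). Dgkd, a kinase that removes diacylglycerol, rose by 0.67 ± 0.06 (edgeR adjusted p = 4.26e-08). Rasgrp3, a diacylglycerol-dependent activator of Ras and Rap, fell by 0.77 ± 0.06 (edgeR adjusted p = 1.62e-08), and Plcl2, a phospholipase-like protein without catalytic activity, fell by 0.75 ± 0.11 (edgeR adjusted p = 2.93e-05). Among 34 other calcium-binding proteins 8 rose (23.5%) and 9 fell (26.5%), also near those shares. Hpcal1, a neuronal-type calcium sensor, and Capns1, the small calpain subunit, rose by 0.80 ± 0.09 and 0.50 ± 0.07 (edgeR adjusted p = 1.16e-06 and 1.94e-05). Anxa1, an annexin that dampens inflammation, and Syt11, a synaptotagmin of phagocytes, fell by 0.52 ± 0.06 and 0.56 ± 0.12 (edgeR adjusted p = 3.16e-06 and 0.00103).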

How the data were processed

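Total RNA of 6 libraries was sequenced, and groups came from the sample titles. The series design text names fastp for trimming, STAR for alignment to mm10, RSEM for counting and edgeR for the authors' comparison. The sources used here give no versions, annotation or strand setting. Each library has 1 deposited table, whose columns include expected counts (RSEM's estimated reads per gene), TPM (scaled for transcript length and depth) and gene lengths in bases, per the file headers. Symbols were found for 52403 of 52636 genes, and coordinates and exon overlap, counted on either strand, came from GENCODE M21 (GRCm38). Values of genes with at least 10% of exon length shared are called uncertain.

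Expected counts were rounded and filtered with filterByExpr (minimum count 10, total 15), which left 11561 genes and 99.85% of counts. edgeR 4.0.16's quasi-likelihood F test (limma 3.58.1, R 4.3.3) used TMM scaling and no covariate, with p-values adjusted by Benjamini-Hochberg and a threshold of 0.05. The biological coefficient of variation was 7.52%. The SE is the log2 fold change divided by the square root of F, and is approximate. No 2 tables were duplicates by a chi-square test. The fit was tried on simulated data.

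The members and lists were chosen with earlier results of these data known. Values per library are given for called members with at least a 1.5-fold change and separate groups, for the most abundant member of each site by TPM, and for 7 genes whatever their p (Stim1, Orai1, Itpr1, Mcu, Calm2, Ppp3r1, Rcan1). From each pathway list up to 2 called genes per direction are named, by adjusted p, with separate groups and at least 5 CPM. Of the listed symbols 1 had no match, and some genes that these rules name are not reported here. Alternatives were RLE scaling, library sizes alone, DESeq2 1.42.0, limma on log2(TPM + 1) and log2(TPM + 0.1), other low-count filters, a replicate block, omission of the 10 most abundant genes, of genes with non-whole counts or of each library in turn, and removing each library's GC trend. The transcript length values were analysed after the data were seen. Promoter windows are RefSeq's for GRCm38.p6.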

Additional observations from a re-analysis of the deposited data

How the results depend on the processing

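Of the 30 called members, 20 kept call and direction in all 17 alternatives. The other 10 were Atp2c1, Camk1, Letm1, Mcub, Nfatc3, P2rx7, Ppp3r1, Slc8b1, Tpcn1 and Trpm7. The median of all genes moved to -0.1 on log2(TPM + 0.1), to -0.09 with library sizes alone and to 0.1 without a low-count filter, so small changes depend on the scaling. On log2(TPM + 1) and log2(TPM + 0.1), 1717 and 1705 genes were called higher, and on both scales 3 entry genes and 0 store genes were called lower, 1 mitochondrial gene and 25 other pathway genes higher. With the GC trend removed, 5 entry genes and 1 mitochondrial gene were higher. Library sizes alone left 1 mitochondrial gene higher and no low-count filter 2, and leaving out 1 library gave 1 to 4. The cause was not tested.

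Directions turned mainly for genes near 0. Stim2 was at -0.07 with library sizes alone, -0.34 and -0.36 on the TPM scales, -0.004 without a filter, and between -0.03 and 0.08 with 1 library left out. Ppp3cb was at -0.06 with library sizes alone, -0.02 and -0.03 on the TPM scales and between -0.03 and 0.09 with 1 library left out, and Camk2d was at -0.005 with library sizes alone. Camk2g was at 0.01 with RLE scaling and with DESeq2, 0.0008 without genes with non-whole counts, and 0.04, 0.01 and 0.02 without C2S replicate 1, C2S replicate 2 and PM_control replicate 1. The GC correction turned Trpm7 to 0.19, Micu2 to 0.07, Calm2 to 0.08 and Ppp3r1 to 0.02.

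By share of expected counts the differences in percentage points were 4.84 for Orai2, 4.03 for Mcu, 9.86 for Ppp3ca, -9.6 for Ppp3cb, -0.259 for Ppp3cc, and 12 for P2rx4. The Rcan1 share difference of 32 points was 24.5 to 37.9 with 1 library left out. With at least 100 counts in every library, 11 of 38 members and 16.8% of 6590 genes had separate mean lengths.

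Replicate numbers are shared between the groups, and deviations of same-numbered libraries correlated at -0.011, 0.069 and 0.034. Paired libraries with little variation in common would also give values near 0, so this check cannot decide whether libraries were paired. With the replicate number as a block 17 members were higher and 12 lower, over all genes 3192 and 3297.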
